A study of Mus musculus with 12 samples.

Results

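The 30 genes described here encode enzymes of cholesterol and fatty acid synthesis, their regulators and a sterol carrier. They were taken by gene symbol from the 55471 genes listed for colonic crypts, and each of them was among the 14610 genes tested. Crypts were released with EDTA from the colons of young adult female C57BL/6J mice, and RNA of 12 mice was sequenced with 1 library per mouse. The 3 CBPWTp53-floxed mice carried wild-type CBP and floxed p53 alleles, and the 3 CBPAAp53-floxed mice carried a knock-in CBP in which a pair of phosphorylated serines is replaced with alanines. In the 3 CBPWTp53ΔIEC and the 3 CBPAAp53ΔIEC mice, p53 was deleted in intestinal epithelial cells by Cre under the Villin promoter, so that other cells of the tissue keep the gene. The knock-in allele is carried by all cells of the body.

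Cholesterol is built from acetyl-CoA through mevalonate, isoprenoid units and squalene, and fatty acids are built from malonyl-CoA and then elongated and desaturated. The transcription factors SREBP1 and SREBP2, products of Srebf1 and Srebf2, drive the genes of both pathways. SCAP carries them from the endoplasmic reticulum to the Golgi when sterols are low, and the INSIG proteins hold them back when sterols are abundant. Dividing cells of the crypt need both lipids for new membranes.

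Upstream sequences are shown for 4 members, of which Acat2, Mvk and Nsdhl passed the cutoff with p53 deletion. Hmgcs1, which acts early in the mevalonate pathway, did not pass with all 12 libraries. Pmvk and Tm7sf2 passed and had windows that are not shown, so the 4 do not stand for all members past the cutoff. Each line holds the 200 bases before the RefSeq start site on the gene's strand, from the GRCm38.p6 table, in which 24 of the 30 members had a window. The windows lie on GRCm38.p6 with Acat2 at chr17:12960726-12960925 (minus strand), Hmgcs1 at chr13:119690151-119690350 (plus strand), Mvk at chr5:114444069-114444268 (plus strand) and Nsdhl at chrX:72918321-72918520 (plus strand). Capitals mark the letters CACNCCAC, a core resembling the sterol regulatory element, and CCAAT, the box bound by NF-Y, on either strand.
Acat2: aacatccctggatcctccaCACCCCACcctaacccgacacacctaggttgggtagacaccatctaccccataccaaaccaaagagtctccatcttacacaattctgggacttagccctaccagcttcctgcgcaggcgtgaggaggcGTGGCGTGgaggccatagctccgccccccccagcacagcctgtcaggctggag
Hmgcs1: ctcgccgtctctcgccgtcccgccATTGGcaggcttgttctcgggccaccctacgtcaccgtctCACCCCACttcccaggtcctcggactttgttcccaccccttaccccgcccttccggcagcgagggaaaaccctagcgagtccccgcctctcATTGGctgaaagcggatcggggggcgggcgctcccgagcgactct
Mvk: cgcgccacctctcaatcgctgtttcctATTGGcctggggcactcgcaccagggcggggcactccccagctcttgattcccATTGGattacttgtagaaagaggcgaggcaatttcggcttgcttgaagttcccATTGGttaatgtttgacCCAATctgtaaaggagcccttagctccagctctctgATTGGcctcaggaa
Nsdhl: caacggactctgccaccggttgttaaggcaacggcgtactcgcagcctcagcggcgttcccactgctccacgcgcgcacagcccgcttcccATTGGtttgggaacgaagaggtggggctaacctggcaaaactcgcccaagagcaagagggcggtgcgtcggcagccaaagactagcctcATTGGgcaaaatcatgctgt
CACNCCAC was found in 3 of 33 windows of the members, those of Acat2, Hmgcs1 and Insig1, and in 4.3% of the 32851 windows of all genes. CCAAT was found in 18 of 33 windows of the members and in 29.3% of all windows. Mvk held 5 CCAAT boxes, and Nsdhl and Hmgcs1 each held a pair. Pmvk and Tm7sf2, whose windows are not shown, held only a CCAAT box each, 136 and 47 bases before the start. Matches of letters are a description and show no binding.

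Libraries held 11177430 to 18029125 counts in total. Trp53 had a TPM (transcripts per unit of library, scaled to gene length) between 23.3 and 33.5 in the 6 p53-floxed libraries and between 3.26 and 6.13 in the p53-deleted libraries. Markers of colonic epithelium summed to at least 17731 TPM in every library, whereas 9 of 10 stromal, 6 of 7 adipocyte and 4 of 5 endothelial markers had at most 10 counts in every library. Of the leukocyte markers only 2 of 7 did, and that list summed to 3.3 to 6.29 TPM. Paneth cell genes, which are products of the small intestine, summed to 23.9 to 63.4 TPM in CBPWTp53-floxed, 94.5 to 930 in CBPAAp53-floxed, 56.7 to 16325 in CBPWTp53ΔIEC and 62 to 4123 TPM in CBPAAp53ΔIEC libraries. The highest sums were those of CBPWTp53ΔIEC replicate 1 (16325 TPM), CBPAAp53ΔIEC replicate 3 (4123 TPM) and CBPAAp53ΔIEC replicate 1 (2239 TPM). Small intestine genes summed to 7232 TPM in CBPWTp53ΔIEC replicate 1 and to 4345 TPM in CBPAAp53ΔIEC replicate 3, against 809 to 3419 TPM in the other libraries. In bulk RNA, fewer cells of a type and less RNA per cell cannot be told apart.

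Levels of the members differed widely. In the mevalonate pathway, the mean over all libraries ran from 147 TPM for Hmgcs1 (HMG-CoA synthase) to 4.21 TPM for Fdps (farnesyl diphosphate synthase). From squalene to cholesterol it ran from 89.4 TPM for Ebp (sterol isomerase) to 11.7 TPM for Hsd17b7. Among the regulators, Insig1 had the highest mean (81.4 TPM) and Scap the lowest (26.4 TPM). Stard4, a cytosolic sterol carrier, had a mean of 122 TPM. Among the fatty acid genes, the mean ran from 261 TPM for Scd2, a stearoyl-CoA desaturase, to 7.18 TPM for Acaca (acetyl-CoA carboxylase). Reads of Acaca can be shared with Gm5182, which is 99.2% identical to it over 6118 bases.

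Whether CBP phosphorylation sites mattered to these genes while p53 was present was read from CBPAAp53-floxed vs. CBPWTp53-floxed crypts. None of the 30 members passed the cutoff (edgeR adjusted p under 0.05 and log2 fold change above 0.5 in size), and 0% of all genes tested did. DESeq2 and limma called 0 members as well, although DESeq2 called 34 of all genes. In edgeR, 3 members were higher and 0 lower at an unadjusted p under 0.05, against 3.86% and 4.18% of all genes tested. The median log2 fold change of the members was 0.06, beside 0.01 for all genes tested.
Fdps had the smallest p, at 0.78 on the log2 fold scale (standard error, SE, of 0.26, edgeR adjusted p = 0.618). Its TPM was 2.49, 2.29 and 2.49 in CBPWTp53-floxed and 5.4, 2.75 and 3.49 in CBPAAp53-floxed mice, so that the groups did not overlap. In library-scaled counts, 4 of 30 members lay higher without overlap and 0 lower, where 1425 and 1406 of the 14610 genes tested did. Insig1 (log2 fold change 0.42, SE 0.18) and Ebp (0.21, SE 0.09) followed, both with an edgeR adjusted p of 0.618. Insig1 stood at 80, 72.1 and 62.1 TPM in CBPWTp53-floxed and at 107, 70.7 and 87.2 TPM in CBPAAp53-floxed mice, and the groups overlapped. Ebp stood at 86.9, 83.1 and 83.2 TPM in the former and at 99, 97.3 and 73.9 TPM in the latter. Pmvk and Fdft1 had log2 fold changes of 0.26 and 0.24 with edgeR adjusted p of 0.657 and 0.672.

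A few cholesterol synthesis genes rose with p53 deletion in mice with wild-type CBP, in calls that rested on single libraries. In CBPWTp53ΔIEC vs. CBPWTp53-floxed crypts, 4 of 30 members passed the cutoff and were higher, and 0 were lower, where 2.29% of all genes tested passed as higher, 0.856% as lower and 3.15% in either direction. They were Nsdhl and Sqle of the squalene to cholesterol steps and Fdps and Pmvk of the mevalonate pathway. The median log2 fold change was 0.52 for the members and 0.01 for all genes tested, and 26 of 30 members had a positive value (51.2% of all genes tested). An unadjusted p under 0.05 was reached by 16 members, all higher, against 12.6% of all genes tested as higher and 8.28% as lower. In library-scaled counts (CPM), 19 members lay higher in every deleted than in every floxed library, as did 16.1% of all genes tested. By groups, the median was 0.79 for the mevalonate pathway, 0.58 for squalene to cholesterol, 0.33 for SREBP regulation and 0.38 for fatty acid synthesis.

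In the mevalonate pathway, 2 of 7 members passed and all 7 had positive values. Fdps, which makes farnesyl diphosphate, had a TPM of 4.38, 5.99 and 7.75 in CBPWTp53ΔIEC mice and of 2.29 to 2.49 in CBPWTp53-floxed mice, without overlap. It rose with a log2 fold change of 1.33 (SE 0.26, edgeR adjusted p = 0.0267). Its counts are few (46 to 167 per library) and uncertain, because the processed copies Gm3571 and Gm5873 are over 95% identical to it and Gm43738 overlaps it on the same strand.
Pmvk (phosphomevalonate kinase) had a TPM of 31.3, 43.8 and 51.7 after deletion and of 30.8, 26.6 and 24.8 before it, and rose by a log2 fold change of 0.64 (SE 0.16, edgeR adjusted p = 0.046). The lowest deleted library stood just above the highest floxed one. Acat2, an acetyl-CoA acetyltransferase, had a TPM of 23.8, 44.1 and 51.3 against 18.7, 19.9 and 17.4, with a log2 fold change of 1.08 (SE 0.28) and an edgeR adjusted p of 0.0524. Its reads can be shared with Acat3 and with Tcp1. Mvk (mevalonate kinase) stood at 16.9, 28.6 and 34.2 TPM against 18.6, 13.9 and 14.7 TPM, with a log2 fold change of 0.76 and an edgeR adjusted p of 0.0708, and its groups overlapped in TPM. The other members of the pathway had log2 fold changes from 0.61 (Idi1) to 0.84 (Mvd).

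From squalene to cholesterol, 2 of 10 members passed and all 10 had positive values. Nsdhl, a sterol dehydrogenase of the demethylation steps on chromosome X from 72918557 to 72958514 of GRCm38, had a TPM of 26.5, 35.8 and 48.9 in CBPWTp53ΔIEC mice and of 21.7, 22.2 and 19.8 in CBPWTp53-floxed mice. The groups did not overlap, and it rose with a log2 fold change of 0.81 (SE 0.16, edgeR adjusted p = 0.0266). Sqle (squalene epoxidase, a rate-limiting enzyme) had a TPM of 29.5, 50.5 and 62.5 against 26.9, 24.9 and 28.6 and rose with a log2 fold change of 0.82 (SE 0.21, edgeR adjusted p = 0.0465).
Tm7sf2, a sterol reductase, stood at 14.1, 22.9 and 27.4 TPM against 13.3, 12.1 and 10.7 TPM, with a log2 fold change of 0.84 (SE 0.23, edgeR adjusted p = 0.0634). It shares 532 bases with Vps51 on the same strand. The smallest value of the group was that of Ebp, with a log2 fold change of 0.18.

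Among the regulators, 0 of 5 passed. Srebf1 and Srebf2 had log2 fold changes of 0.48 and 0.34 (edgeR adjusted p = 0.159 and 0.198), and Scap and Insig2 of -0.05 and -0.03. Stard4 had a log2 fold change of -0.12. Of the 7 fatty acid genes, 0 passed. Scd1, a desaturase that makes oleate, stood at 13, 53 and 60 TPM against 13.7, 14.1 and 11.3 TPM, with a log2 fold change of 1.65 (SE 0.51, edgeR adjusted p = 0.107). Scd2 stood at 93.5, 515 and 636 TPM against 137, 181 and 142 TPM, with a log2 fold change of 1.38 (SE 0.66, edgeR adjusted p = 0.271). For both genes, CBPWTp53ΔIEC replicates 2 and 3 lay far above every floxed library and replicate 1 did not. Their transcripts are 95.5% identical over 623 bases, so that Scd1 and Scd2 can share reads. Elovl6, a fatty acid elongase, had a log2 fold change of -0.12.

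**Figure D1:**
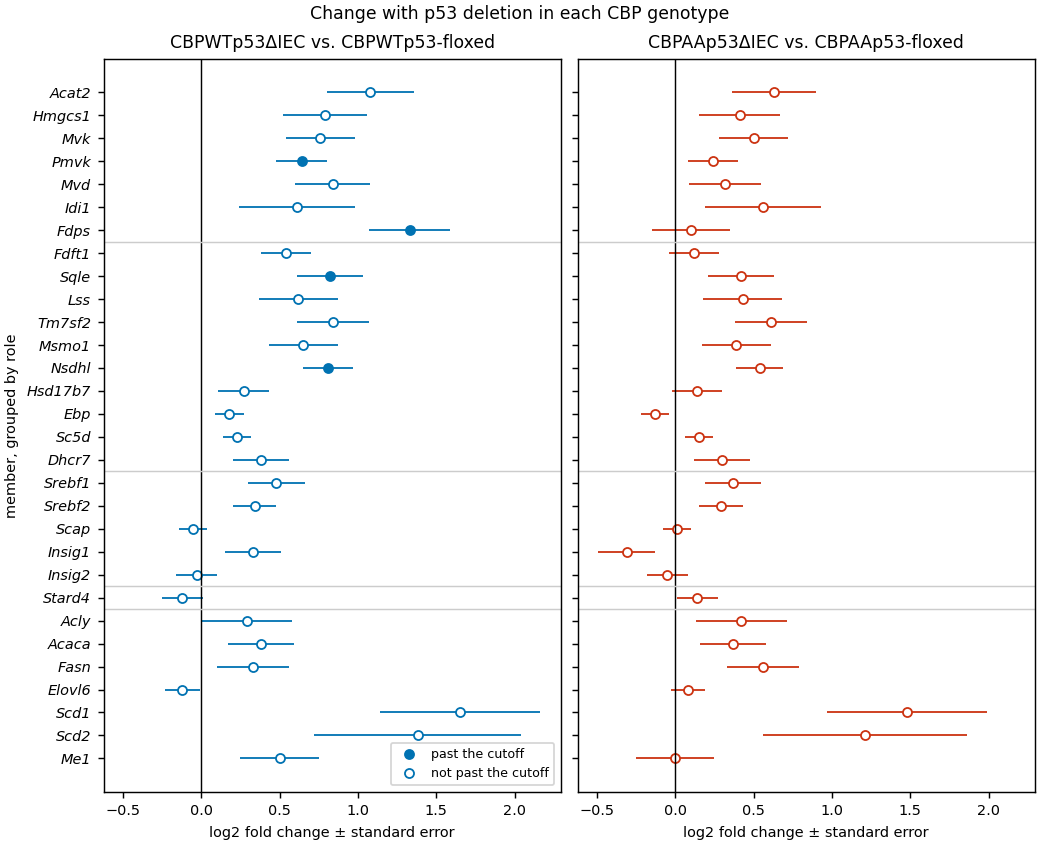
Log2 fold change (x axis) of each of the 30 members (y axis, grouped by role) with p53 deletion, for wild-type CBP on the left and the knock-in on the right; points are edgeR estimates, bars are standard errors and filled points passed the cutoff. Of the members on the left, 4 are filled, and on the right 0.

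The calls of this comparison depended on single libraries, and those of all genes tested moved with them (3.15% in either direction with all 12 libraries). Without CBPWTp53-floxed replicate 1, 2 or 3, or CBPWTp53ΔIEC replicate 2 or 3, 0 members and 0.00671% to 0.047% of all genes tested passed. Without CBPAAp53-floxed replicate 1 or 3, or CBPAAp53ΔIEC replicate 1, 2 members and 1.69% to 2.83% of all genes passed. Without CBPWTp53ΔIEC replicate 1, 14 members and 6.06% of all genes passed, and without CBPAAp53ΔIEC replicate 3, 12 members and 4.93%. DESeq2 called 12 members and 5.91% of all genes, and limma on TPM called 0 members and 0.0958%.

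In CBPAAp53ΔIEC vs. CBPAAp53-floxed crypts, 0 of 30 members passed the cutoff in edgeR, DESeq2 or limma. Of all genes tested, 0.0274%, 0.615% and 0.0479% passed in these tools, in that order. At an unadjusted p under 0.05, 6 members were higher and 0 lower, where 7.19% of all genes tested were higher and 5.41% lower. In CPM, 3 members lay higher without overlap, where 7.86% of all genes tested did, and 27 of 30 had a positive value, where 52.2% did. The median log2 fold change was 0.34 for the members and 0.01 for all genes tested.
Nsdhl had the smallest p, with a log2 fold change of 0.54 (SE 0.15, edgeR adjusted p = 0.32), and stood at 38.8, 43.7 and 27 TPM against 25, 23 and 20.4 TPM, without overlap. Scd1 stood at 34.6, 41.4 and 11.7 TPM against 10.2, 10.6 and 7.66 TPM, with a log2 fold change of 1.48 (SE 0.51, edgeR adjusted p = 0.342). Tm7sf2 stood at 20, 22.9 and 10.4 TPM against 10.3, 11 and 10.2 TPM, with a log2 fold change of 0.61 (SE 0.23, edgeR adjusted p = 0.349).
In each of these genes, CBPAAp53ΔIEC replicate 3 was the lowest library of its group. Fasn, fatty acid synthase, stood at 69.6, 81.4 and 47.3 TPM against 51.1, 33.2 and 38.7 TPM, with a log2 fold change of 0.56 (edgeR adjusted p = 0.376). Mvk stood at 26.1, 31 and 15.4 TPM against 17.4, 15 and 14.2 TPM, with a log2 fold change of 0.50 (edgeR adjusted p = 0.385). Without CBPAAp53ΔIEC replicate 3, 3 members passed, Acat2, Tm7sf2 and Nsdhl, beside 2.19% of all genes tested.

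With p53 deletion averaged over both CBP genotypes, 7 of 30 members passed the cutoff and were higher, and 0 were lower, where 2.77% of all genes tested passed as higher, 0.732% as lower and 3.5% in either direction. An unadjusted p under 0.05 was reached by 21 members as higher and 0 as lower, against 13.2% and 8.73% of all genes tested. Nsdhl rose with a log2 fold change of 0.68 (SE 0.11, edgeR adjusted p = 0.0108), and Tm7sf2 (0.72), Acat2 (0.86), Sqle (0.62), Mvk (0.63), Fdps (0.71) and Scd1 (1.56) rose with edgeR adjusted p between 0.0269 and 0.0412. Pmvk had an edgeR adjusted p of 0.0436 with a log2 fold change of 0.44, under the fold cutoff. The median was 0.43 for the members and 0.01 for all genes tested. Of the 6 p53-deleted against the 6 p53-floxed libraries, Nsdhl and Sc5d did not overlap in CPM, where 1.03% of all genes tested did so as higher. Leaving out any 1 library left between 1 and 15 members past the cutoff. The count was 13 without CBPWTp53ΔIEC replicate 1, beside 7.18% of all genes tested, and 15 without CBPAAp53ΔIEC replicate 3, beside 6.52%. It was 2 without CBPAAp53-floxed replicate 1 or 2, beside 2.04% and 3.64% of all genes, and 1 without any of the remaining 8 libraries, beside 0.705% to 1.77%. Nsdhl was past the cutoff in each of these 12 fits. This comparison shares its libraries with both comparisons above.

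**Figure D2:**
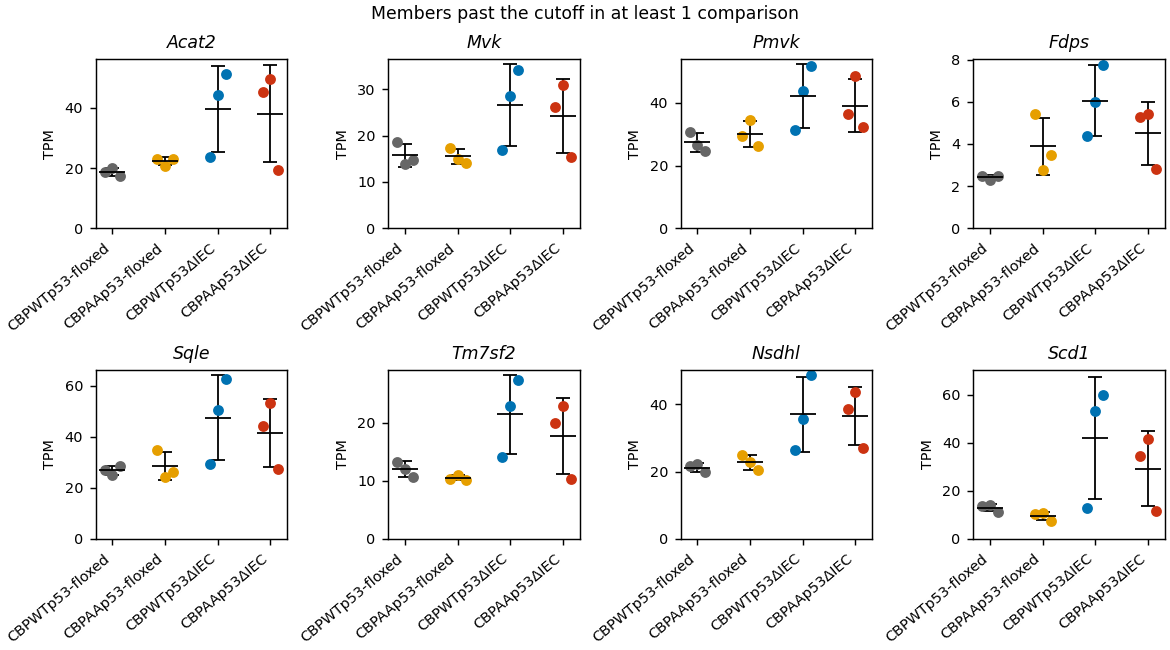
TPM (y axis, from 0) of the 8 members past the cutoff in at least 1 comparison, in the 4 groups (x axis); points are mice, horizontal bars the mean and whiskers the SD of 3 mice. In each panel, 1 mouse of each p53-deleted group lies below the other two, CBPWTp53ΔIEC replicate 1 and CBPAAp53ΔIEC replicate 3.

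The p53-deleted libraries of a group did not agree among themselves. In CPM, CBPWTp53ΔIEC replicates 2 and 3 lay above the range of the 6 p53-floxed libraries in 23 and 22 of 30 members, and CBPAAp53ΔIEC replicates 1 and 2 in 19 and 23. CBPWTp53ΔIEC replicate 1 lay above that range in 13 members, within it in 16 and below it in 1 (Acaca). CBPAAp53ΔIEC replicate 3 lay above it in 4 members (Nsdhl, Sc5d, Scap and Stard4), within it in 25 and below it in 1 (Lss). Over all genes tested, the share above the range was 24.3%, 23.9%, 22.3%, 23.1%, 21.6% and 12.3% for these 6 libraries in the same order.
Scd2 shows the spread most plainly. It stood at 425 and 495 TPM in CBPAAp53ΔIEC replicates 1 and 2 and at 103 TPM in replicate 3, and the p53-floxed libraries ran from 87.8 to 187 TPM. Insig1, Insig2, Scap, Stard4, Elovl6 and Ebp did not part in this way: none of them lay above the range in the same libraries as Scd2.

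**Figure D3:**
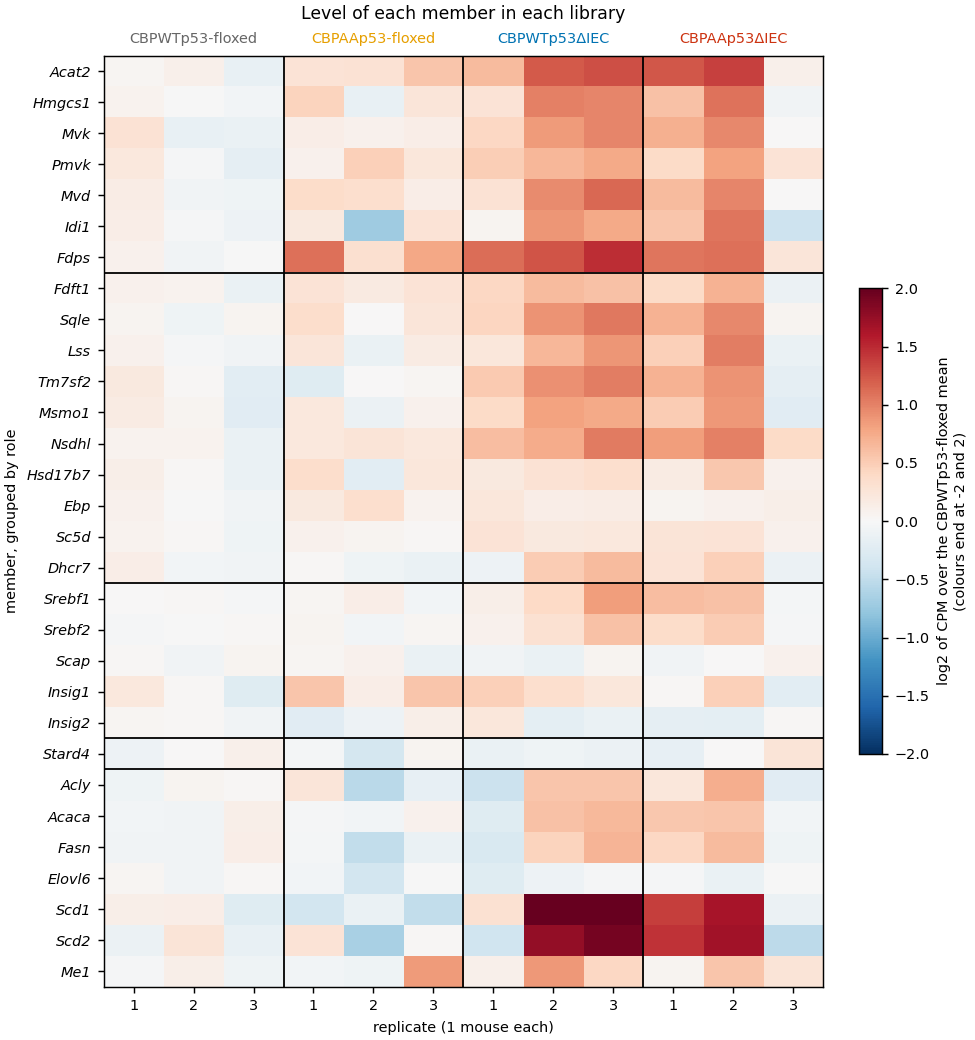
Log2 ratio of CPM to the CBPWTp53-floxed mean (colour, ending at -2 and 2) for each member (rows, grouped by role) in each of 12 libraries (columns, by group and replicate). Most rows of the mevalonate and squalene groups are red in CBPWTp53ΔIEC replicates 2 and 3 and CBPAAp53ΔIEC replicates 1 and 2, whose medians over the members are 0.65, 0.72, 0.44 and 0.71.

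Other measures moved with this spread in part. Proliferation genes summed to 840 and 907 TPM in CBPWTp53ΔIEC replicates 2 and 3 and to 697 and 683 TPM in CBPAAp53ΔIEC replicates 1 and 2, against 403 TPM in CBPWTp53ΔIEC replicate 1, 295 TPM in CBPAAp53ΔIEC replicate 3 and 249 to 360 TPM in the p53-floxed libraries. In CPM, 19 of the 20 proliferation genes lay above the range of the p53-floxed libraries in CBPWTp53ΔIEC replicate 1, and 3 did in CBPAAp53ΔIEC replicate 3. In CBPWTp53ΔIEC vs. CBPWTp53-floxed crypts, 18 of the 20 passed as higher (median log2 fold change 1.78), where 2.29% of all genes tested did. With deletion in the knock-in, 0 passed (median 0.89), where 0.0274% of all genes tested did. The number that ends the library name is above 200 for CBPWTp53ΔIEC replicates 2 and 3 and CBPAAp53ΔIEC replicates 1 and 2. It is below 200 for the other 8 libraries, and what the number is was not stated. The Paneth and small intestine sums given above were highest in CBPWTp53ΔIEC replicate 1 and CBPAAp53ΔIEC replicate 3. The part of each of these in the members' levels was not tested.

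**Figure D4:**
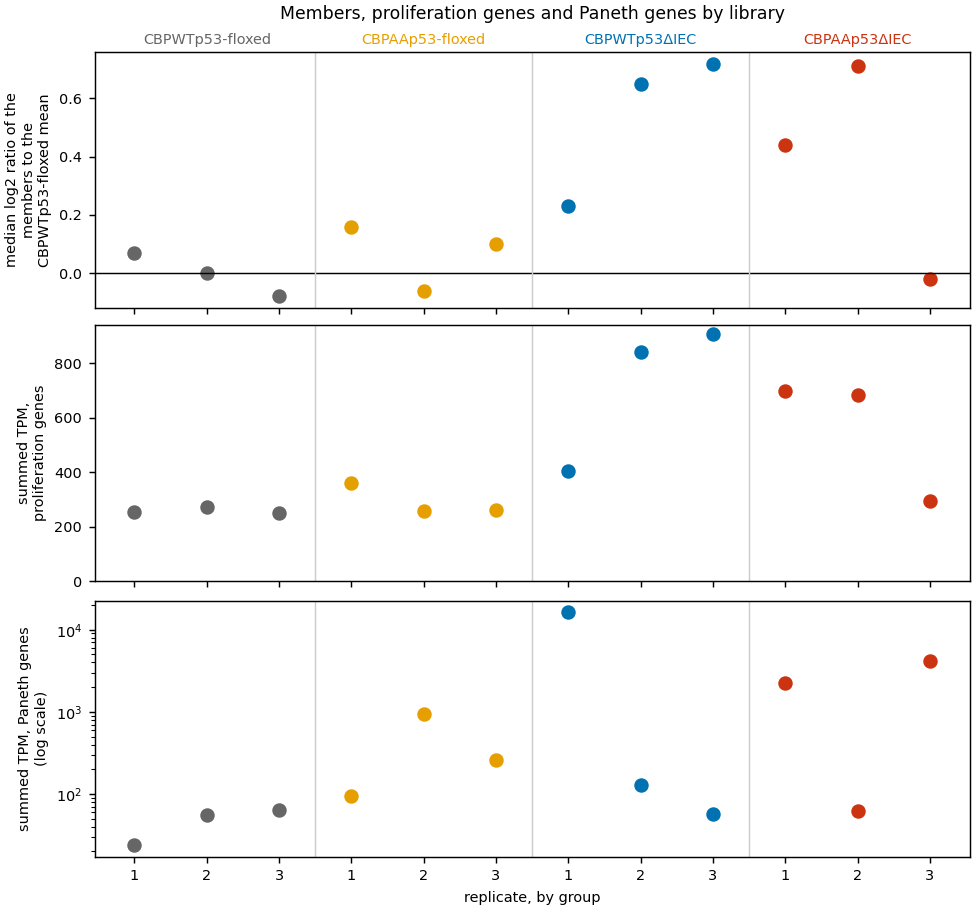
Median log2 ratio of the 30 members to the CBPWTp53-floxed mean (top), summed TPM of 20 proliferation genes (middle, from 0) and summed TPM of 6 Paneth genes (bottom, log scale) in each library (x axis, by group and replicate). CBPWTp53ΔIEC replicate 1 and CBPAAp53ΔIEC replicate 3 have the lowest medians (0.23 and -0.02) and the highest Paneth sums (16325 and 4123 TPM) of the p53-deleted libraries.

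The counts were taken again with libraries left out in 3 ways. These ways were chosen after the members' values in each library had been seen, and the libraries they leave out largely coincide with the spread just described, so that they are no independent support for either outcome. Without CBPWTp53ΔIEC replicate 1 and CBPAAp53ΔIEC replicate 3, 18 members passed as higher in CBPWTp53ΔIEC vs. CBPWTp53-floxed (6.09% of all genes tested) and 15 in CBPAAp53ΔIEC vs. CBPAAp53-floxed (5.01%). Without the 4 libraries whose Paneth genes summed to over 500 TPM, 20 and 18 passed (7.11% and 4.3% of all genes tested), and 2 members, Fdps and Insig1, passed in CBPAAp53-floxed vs. CBPWTp53-floxed (0.112%, against 0.0269% in the fit before and 0% in the next). With only the libraries whose name ends in a number below 200, which keeps 1 library in each p53-deleted group and assumes that it varies like the others, 0 members passed in both (1.73% and 0.00659%). Averaged over CBP genotypes, these 3 fits gave 19, 20 and 0 members, beside 7.12%, 7% and 0.771% of all genes tested. In that last fit, Acat2 had log2 fold changes of 0.64 and -0.28 and Scd2 of -0.42 and -0.46 in the respective comparisons.

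Between the p53-deleted groups, CBPAAp53ΔIEC vs. CBPWTp53ΔIEC, 0 of 30 members passed in edgeR, DESeq2 or limma, 0 had an unadjusted p under 0.05 in edgeR (1.81% of all genes tested as higher, 1.76% as lower), and 0.00684% of all genes tested passed in edgeR. The median log2 fold change was -0.09. Fdps had the smallest p, with 5.29, 5.4 and 2.8 TPM against 4.38, 5.99 and 7.75 TPM and a log2 fold change of -0.45 (SE 0.25, edgeR adjusted p = 0.985). Tm7sf2 (-0.30), Insig1 (-0.22), Stard4 (0.16) and Fdft1 (-0.18) followed, with the same adjusted p. With the CBP genotype averaged over both p53 states, 0 members passed in each of these tools, where 0.00684% of all genes tested passed in edgeR. In edgeR, 0 members had an unadjusted p under 0.05 (1.42% of all genes tested as higher, 1.15% as lower), and the median was 0.00. The smallest p was that of Scd1, with a log2 fold change of -0.42 (SE 0.35, edgeR adjusted p = 1).
For the interaction of CBP genotype and p53 deletion, 0 members passed in each tool, where 0.00684% of all genes tested passed in edgeR. At an unadjusted p under 0.05 in edgeR, 3 members were lower and 0 higher, and 5.28% of all genes tested were lower and 5% higher. Fdps had a value of -1.23 on the log2 scale (SE 0.36), Insig1 of -0.64 (SE 0.25) and Ebp of -0.30 (SE 0.13), each with an edgeR adjusted p of 0.482. Of the 30 members, 25 had a negative value, among them 7 of 7 of the mevalonate pathway and 10 of 10 from squalene to cholesterol. Of the 14610 genes tested, 7668 did. The median was -0.18 for the members and -0.02 for all genes tested. All 20 proliferation genes were negative, with a median of -0.66. For no single member was a different response to p53 deletion in the 2 CBP genotypes detected at this depth and number of mice. A shared lean of the members was not tested.

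Further genes of both pathways were read in CBPWTp53ΔIEC vs. CBPWTp53-floxed crypts, and 2 of 23 further sterol genes, all tested, fell, where 0.856% of all genes tested did. Abca1, which exports cholesterol, fell by 1.47 on the log2 scale (edgeR adjusted p = 0.0126), and Mylip, which marks the LDL receptor for degradation, fell by 0.69 (edgeR adjusted p = 0.023).
Of 17 further fatty acid and glyceride genes, 16 were tested and 3 rose in that comparison, where 2.29% of all genes tested did. These were the desaturase Fads1 (log2 fold change 1.65), the transcription factor gene Mlxipl (0.61) and G6pdx (0.55), which supplies NADPH, with edgeR adjusted p of 0.034, 0.0463 and 0.036. Averaged over both CBP genotypes, Cyp51 (0.63), Fads1 (1.24) and Mlxipl (0.54) rose and Abca1 fell by 0.87 on the log2 scale, where 2.77% of all genes tested rose and 0.732% fell. In CBPAAp53ΔIEC vs. CBPAAp53-floxed crypts, 0 of the 39 tested passed in edgeR, where 0.0274% of all genes tested did. There, Abca1 had a log2 fold change of -0.27 (SE 0.20) and Mylip of 0.11 (SE 0.12). Their interaction values were 1.19 and 0.80 on the log2 scale, with edgeR adjusted p of 0.482 and 0.471. In that knock-in comparison, an unadjusted p under 0.05 was reached by 5 of the 39, where 7.19% of all genes tested were higher and 5.41% lower.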

How the data were processed

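RNA of colonic crypts of 12 mice was analysed, 3 in each of 4 groups taken from the genotype labels. The authors deposited raw read counts per gene and TPM per gene in 1 table. It also holds log2 fold changes and p-values of 5 comparisons, which were not used. Per the submitters' processing notes, fastp 0.20.0, FastQC 0.11.9, HISAT2 2.1.0, SAMtools 1.9 and featureCounts of Subread 2.0.1 were used with GRCm38. Use of strand in counting is not given in the sources used here, and reads of overlapping genes may be mixed. Per the study's methods, mice with wild-type CBP were littermate controls of knock-in mice within each p53 state. The p53-deleted mice came from a further cross to Villin-Cre mice, and floxed littermates of them are not described. Which mice shared a litter is not given in the sources used here.

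Counts were analysed with edgeR 4.0.16 in R 4.3.3 (filterByExpr with a minimum count of 10, TMM, robust quasi-likelihood fit over 12 libraries, 7 contrasts), with Benjamini-Hochberg adjustment of p-values over all 14610 genes tested. Genes passed with an adjusted p under 0.05 where the log2 fold change also exceeded 0.5 in size. Alternatives used DESeq2 1.42.0, limma 3.58.1 on log2(TPM + 1), other scaling and filters, the replicate number as a block and each library left out. Another 3 were added after the members' values had been seen. The script was tested on simulated counts. Some genes of the further sterol list are not reported here by name or direction. The members and gene lists were chosen with earlier results of these data known. Members past the cutoff were named, and the 5 with the smallest p where fewer than 5 passed, with the extremes of each role group. Related transcripts were found with blastn 2.17.0, at 95% identity over 100 bases or more. Sequences come from RefSeq. Plots were made in Python 3.11.15 (matplotlib 3.10.9). Depth was 11177430 to 18029125 counts per library, and p-values measure the spread between these mice.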

Additional observations from a re-analysis of the deposited data

How the results depend on the processing

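In CBPWTp53ΔIEC vs. CBPWTp53-floxed crypts, 4 members and 3.15% of all genes tested passed. DESeq2 called 12 members (5.91% of all genes), a fit of the 2 groups alone 11 (5.11%), limma on TPM 0 (0.0958%) and the replicate block 0 (0.219%). Leaving out 1 library gave 0 to 14 members, beside 0.00671% to 6.06% of all genes. For p53 deletion averaged over CBP genotypes, 7 members and 3.5% of all genes passed. DESeq2 called 11 members (5.06%), no filter on low counts 4 (1.71%), limma 1 (0.835%) and the replicate block 1 (2.08%). Leaving out 1 library gave 1 to 15 members, beside 0.705% to 7.18% of all genes. In CBPAAp53ΔIEC vs. CBPAAp53-floxed crypts, leaving out 1 library gave 0 to 3 members, beside 0.00671% to 2.19% of all genes. Whether the replicate numbers pair mice is not given in the sources used here. Deviations of same-numbered libraries correlated between -0.526 and 0.548 and those of other libraries between -0.657 and 0.643. The ranges are alike and do not decide whether mice were paired. The block moved no count of the other comparisons off 0.

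Of the alternatives chosen after seeing the data, leaving out CBPWTp53ΔIEC replicate 1 and CBPAAp53ΔIEC replicate 3 gave 18, 15 and 19 members as higher. These are for deletion with wild-type CBP, with the knock-in and averaged, beside 6.09%, 5.01% and 7.12% of all genes tested. Leaving out libraries with over 500 TPM of Paneth genes gave 20, 18 and 20, beside 7.11%, 4.3% and 7%, and 2 in CBPAAp53-floxed vs. CBPWTp53-floxed, beside 0.112%. Its median was 0.62 for deletion with the knock-in. Keeping only library names below 200 gave 0, 0 and 0, with medians of 0.23, -0.09 and 0.03. With deletion in the knock-in, that setting left 22 of 30 members negative, where 3 were negative with all 12 libraries, among them Tm7sf2 (-0.12) and Mvk (-0.10). It also turned the log2 fold change of Fdps (-0.07) for CBP genotype averaged. In CBPAAp53ΔIEC vs. CBPWTp53ΔIEC, Insig1 (0.20) and Fdft1 (0.09) turned without libraries over the Paneth limit, and Fdft1 (0.01) without CBPAAp53ΔIEC replicate 3, in a range of -0.38 to 0.01 with 1 library left out. The median of the interaction lay between -0.44 and -0.02 with 1 library left out. The cause was not tested. Precision is limited by 3 mice per group and, for Fdps, by 46 to 167 counts per library.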
